A study of Mus musculus with 2 samples.

Results

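The platelet-derived growth factor (PDGF) system in mouse comprises 4 ligand genes, Pdgfa, Pdgfb, Pdgfc and Pdgfd, and 2 receptor genes, Pdgfra and Pdgfrb. These 6 genes were taken by symbol from the 28001 features of the count tables, and all 6 were found. PDGF ligands are secreted dimers that bring receptor tyrosine kinases together at the cell surface. PDGF-A and PDGF-C act chiefly through PDGFRα and PDGF-B and PDGF-D chiefly through PDGFRβ, and PDGF-C and PDGF-D must be cut by proteases before they bind. PDGFRα is a classical marker of fibroblasts and other mesenchymal cells, and PDGF-B from endothelial cells recruits pericytes that carry PDGFRβ.

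RNA of single cells from adult mouse digit tips under regeneration was sequenced (10x Genomics 3′ libraries, in which unique molecular identifiers, UMIs, count RNA molecules). The Pdgfra library came from PdgfraCreERT;R26-LSL-TdT mice and the Lmx1b library from Lmx1bCreERT2;R26-LSL-TdT mice, with 1 library per line. In both lines a tamoxifen-dependent Cre recombinase switches on a tdTomato reporter at Rosa26, under control of Pdgfra in one line and of Lmx1b, a LIM homeodomain gene of dorsal limb, in the other. Mice of both lines were 10 to 12 weeks old, had received tamoxifen at 3 mg per day, were amputated 10 days after it, and gave tissue distal to the cut 14 days after amputation. The labels do not say whether either Cre is a transgene or a knock-in, and a knock-in could take 1 Pdgfra allele out of use in the Pdgfra line. They do not say how many mice each library holds, and no sort of cells on tdTomato is described. Neither line was described as altering a ligand.

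The Pdgfra library gave 2309 cells at a median of 9774 UMIs and the Lmx1b library 2744 cells at a median of 17084 UMIs. With no replicate no test between libraries or cells was possible, and each level is the gene's UMIs summed over cells, as parts of all UMIs of those cells on the usual CPM scale, with an exact 95% Poisson interval, while shares of cells carry exact (Clopper-Pearson) binomial intervals. These intervals cover counting error only and leave out any variation from cell to cell or mouse to mouse. Clusters of low depth were set aside from their class (580 and 182 cells), as were clusters led by markers of another class (56 and 32 cells). Of these, the 47 set-aside cartilage cells of the Pdgfra library had 48.8 CPM tdTomato, against 996 CPM in its 78 cartilage cells that were kept. The libraries had 10 barcodes in common, 1 of them among the cells kept. Cell classes were named from marker lists that held none of the 6 genes, and the 6 genes were left out of the clustering. Mesenchymal markers (10 collagen, proteoglycan and limb mesenchyme genes such as Col1a1, Dcn and Prrx1) summed to 90820 CPM in the mesenchymal class of the Pdgfra library and to 112416 CPM in that of the Lmx1b library, against 2676 and 1437 CPM in endothelial cells.

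The stretches before a RefSeq start are shown for 3 genes whose levels differed in kind, namely Pdgfa, which was found in every larger class, Pdgfra, which was mainly mesenchymal, and Pdgfd, which had the fewest UMIs of the 6 genes. They are from RefSeq on GRCm38.p6 and are printed 5′ to 3′ on the strand of the gene, with capitals for matches to GGGCGG (the GC box, in either orientation) or TATAAA (the TATA box, in either orientation). The Pdgfa stretch is chr5:138994945-138995194, the Pdgfra stretch chr5:75152001-75152250 and the Pdgfd stretch chr9:6168236-6168485.
Pdgfa: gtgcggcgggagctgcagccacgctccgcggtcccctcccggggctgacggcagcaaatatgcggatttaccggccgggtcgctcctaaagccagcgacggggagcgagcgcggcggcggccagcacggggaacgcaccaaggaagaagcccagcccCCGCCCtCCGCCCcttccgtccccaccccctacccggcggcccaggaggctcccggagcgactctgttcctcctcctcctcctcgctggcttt
Pdgfra: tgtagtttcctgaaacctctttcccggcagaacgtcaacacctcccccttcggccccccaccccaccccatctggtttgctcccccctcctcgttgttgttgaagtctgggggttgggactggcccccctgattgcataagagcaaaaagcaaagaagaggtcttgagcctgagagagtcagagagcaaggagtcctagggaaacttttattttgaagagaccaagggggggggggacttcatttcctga
Pdgfd: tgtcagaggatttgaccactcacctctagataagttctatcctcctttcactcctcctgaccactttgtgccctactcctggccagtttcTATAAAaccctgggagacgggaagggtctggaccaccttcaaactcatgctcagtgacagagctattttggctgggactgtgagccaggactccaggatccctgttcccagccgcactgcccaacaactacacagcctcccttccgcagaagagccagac
The Pdgfa stretch had 72.4% G and C and 2 matches to GGGCGG, which read CCGCCC on this strand. It is the farther upstream of 2 Pdgfa stretches in RefSeq, of which the other had 66.4% G and C and 1 match, and it lies inside the longer GENCODE span of the gene. Pdgfra had 54.4% G and C and neither word, and Pdgfd had 53.6% and 1 TATAAA match, 160 bases before the start. Over 32851 mouse promoter stretches of equal length the median was 52.4% G and C, 32.7% held GGGCGG and 12.4% held TATAAA. A match is a description of these letters, and its use by a factor was not measured.

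The genes lie on 5 chromosomes of the mm10 (GRCm38) build. In the GENCODE vM21 annotation Pdgfa spans 138976014 to 138997370 of chromosome 5 on the minus strand and Pdgfra 75152292 to 75198215 of the same chromosome on the plus strand. Pdgfb spans 79995874 to 80014977 of chromosome 15 (minus strand), Pdgfc 81036416 to 81214040 of chromosome 3 (plus strand), Pdgfd 6168584 to 6378850 of chromosome 9 (plus strand) and Pdgfrb 61045150 to 61085061 of chromosome 18 (plus strand). A gene counted in the tables overlaps 4 of them on the opposite strand (6330403L08Rik over Pdgfa, Gm16000 over Pdgfc, Ddi1 over Pdgfd, Gm42802 over Pdgfra). The libraries count 3′ ends.

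Pdgfa was found in every larger class. It was highest in Schwann cells, the glia of peripheral nerve, and in mural cells, the pericytes and smooth muscle around vessels. Schwann cells had 466 CPM (428 to 506) in the Pdgfra library and 521 CPM (454 to 595) in the Lmx1b library, and mural cells 395 CPM (374 to 417) and 456 CPM (438 to 474). The order of these neighbours rests on 100 and 36 Schwann cells, and their intervals do not overlap in the Pdgfra library but do in the Lmx1b library. Next came mesenchymal cells at 102 CPM (97.2 to 107) and 116 CPM (112 to 120), cartilage at 100.4 and 81.5 CPM, and endothelial cells at 92.9 CPM (84.0 to 102) and 80.0 CPM (74.6 to 85.8). Macrophages were at 77.2 and 68.2 CPM and osteoclasts at 65.3 and 44.4 CPM. Epithelial cells stood at 116 and 54.2 CPM, but different clusters held most of this class, and in the shared basal cluster (Krt14, Krt5) Pdgfa was at 117 CPM (102 to 134) and 110 CPM (87.7 to 136). Mesenchymal markers summed to 4699 CPM in that cluster of the Pdgfra library and 54576 CPM in that of the Lmx1b library, where 60 of the 85 Pdgfa UMIs lay in 8 of 71 cells at 104452 CPM of these markers, and their part was not tested. T and NK cells were the class that came nearest to lacking it, with 1 UMI (4.99 CPM) and 5 UMIs (29.2 CPM).

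To compare shares at equal depth, cells were thinned to 5000 UMIs and shallower cells were left out, so that each share at this depth is of the deeper cells of a class. In the Pdgfra and Lmx1b libraries this kept 497 of 552 and 916 of 988 mesenchymal, 207 of 244 and 287 of 309 mural, 235 of 264 and 560 of 588 endothelial, 68 of 100 and 31 of 36 Schwann, and 19 of 33 and 16 of 23 T and NK cells. In these cells a Pdgfa UMI was found in 83.8% and 80.6% of Schwann cells and in 81.6% and 80.8% of mural cells of the Pdgfra and Lmx1b libraries. The share was 29.0% and 33.7% in mesenchymal cells and 5.26% and 6.25% in T and NK cells. Without thinning the shares were 76.0% and 91.7% in Schwann, 90.6% and 93.5% in mural and 69.0% and 72.9% in mesenchymal cells. Set against all cells of other classes, mural cells had 3.57-fold (3.35 to 3.80) and 4.56-fold (4.34 to 4.78) more Pdgfa.

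Pdgfb was an endothelial transcript. Endothelial cells had 214 CPM (201 to 228) in the Pdgfra library and 232 CPM (222 to 242) in the Lmx1b library, against 18.3 and 14.5 CPM in cells of other classes, a ratio of 11.7 (10.6 to 13.0) and 16.0 (14.7 to 17.5). With cells taken at 1000 genes and 5% mitochondrial UMIs the log2 difference in the Lmx1b library was 4.74, against 3.91 as reported. Schwann cells followed at 130 CPM (110 to 152) and 125 CPM (93.2 to 164), with endothelial markers summing to 47.1 and 91.2 CPM there, against 7335 and 8044 CPM in endothelial cells. The Schwann level was spread over cells, 49 of 100 and 18 of 36 of them having a UMI. Osteoclasts, the bone-resorbing cells, had 79.5 CPM (67.1 to 93.6) and 74.0 CPM (59.5 to 90.9), and macrophages 57.6 CPM (48.2 to 68.3) and 60.9 CPM (52.7 to 69.9). The intervals of osteoclasts and macrophages overlap in the Lmx1b library and just do in the Pdgfra library. Mural cells had 28.8 CPM (23.3 to 35.1) and 43.1 CPM (37.7 to 49.0).

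Mesenchymal cells and cartilage were near the bottom for Pdgfb. Mesenchymal cells had 31 UMIs among 552 cells (1.92 CPM, 1.30 to 2.72) in the Pdgfra library and 38 among 988 cells (1.38 CPM, 0.975 to 1.89) in the Lmx1b library. Of the 31, 11 were in 1 cell, with 15090 CPM of mural, 7133 CPM of mesenchymal and 5662 CPM of endothelial markers, and without it the level was 1.24 CPM. Cartilage had 1.21 and 2.07 CPM. At 5000 UMIs a Pdgfb UMI was found in 0.805% and 0.873% of mesenchymal cells and in 61.3% and 55.0% of endothelial cells, and without thinning in 2.72% and 3.04% of mesenchymal and 78.8% and 79.6% of endothelial cells.

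**Figure D1:**
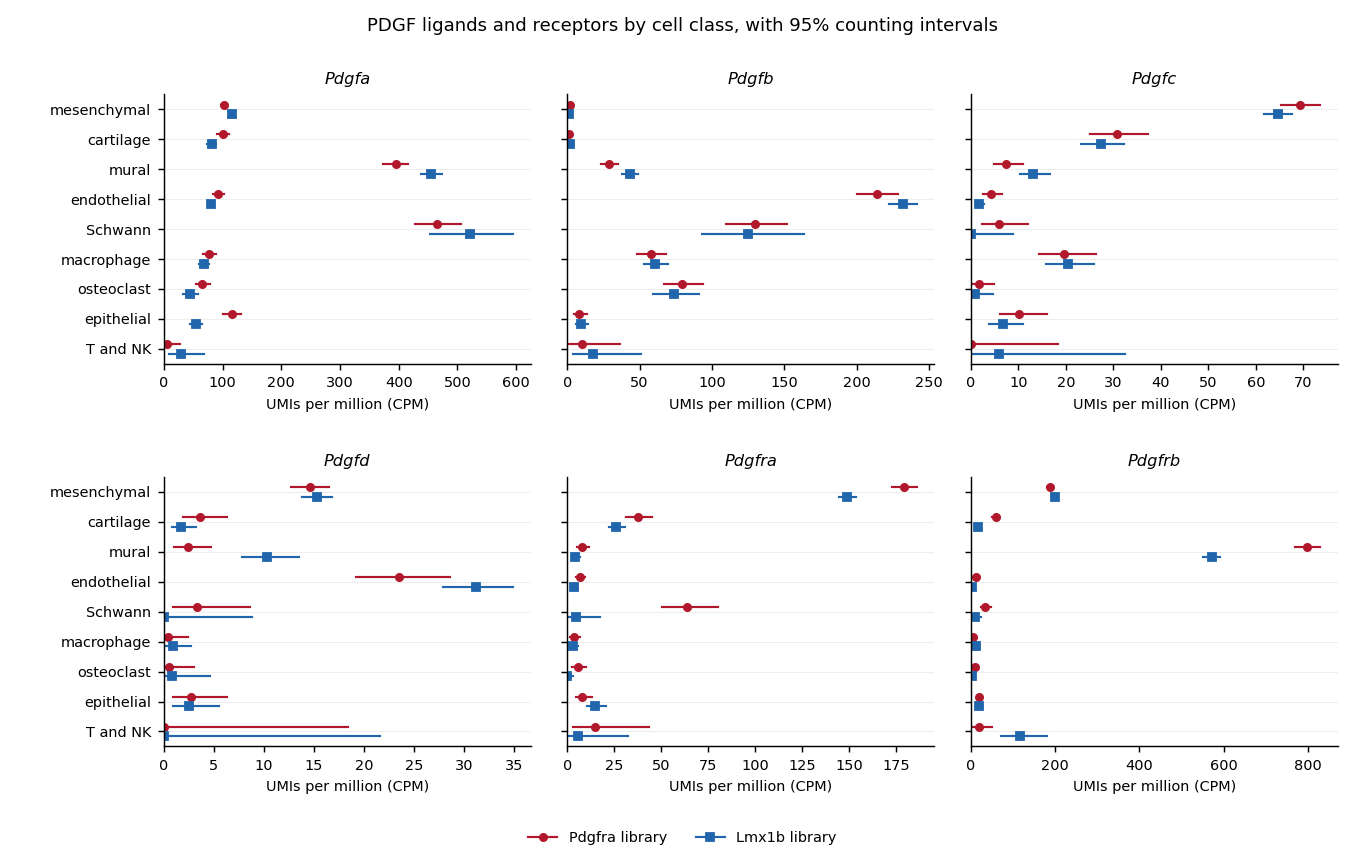
Level of each of the 6 genes (CPM, linear scale) in the larger cell classes, with Pdgfra library points beside Lmx1b library points and bars for exact 95% Poisson intervals. Pdgfb is highest in endothelial cells (214 and 232 CPM), Pdgfra in mesenchymal cells (179 and 149 CPM) and Pdgfrb in mural cells (798 and 571 CPM), in both libraries.

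Pdgfc and Pdgfd, whose products are secreted in latent form with a CUB domain that has to be removed, had different places. Pdgfc was mesenchymal, at 69.3 CPM (65.3 to 73.5) and 64.6 CPM (61.6 to 67.6), which was 5.82-fold (5.04 to 6.73) and 5.69-fold (5.05 to 6.42) above cells of other classes. With cells taken at 1000 genes and 5% mitochondrial UMIs the log2 difference was 1.39 and 1.04, against 2.44 and 2.41 as reported. Cartilage had 30.8 and 27.4 CPM, macrophages 19.6 and 20.5 CPM, and mural cells 7.41 and 13.2 CPM. Endothelial cells were low at 4.15 CPM (2.46 to 6.56) and 1.81 CPM (1.07 to 2.86).

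Pdgfd had the fewest UMIs of the 6 genes, 418 in the Pdgfra library and 823 in the Lmx1b library. It was at 23.5 CPM (19.2 to 28.5) and 31.2 CPM (27.8 to 34.9) in endothelial cells and at 14.6 CPM (12.7 to 16.5) and 15.3 CPM (13.8 to 16.8) in mesenchymal cells. Mural cells had 2.37 and 10.3 CPM, and cartilage, epithelial cells, osteoclasts and macrophages between 0.436 and 3.62 CPM. At 5000 UMIs, 8.94% and 12.3% of endothelial cells and 7.24% and 7.97% of mesenchymal cells had a UMI, against 0% of the 111 and 121 macrophages. Without thinning it was 25.4% and 31.1% of endothelial and 28.3% and 26.4% of mesenchymal cells.

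Pdgfra was mesenchymal. It stood at 179 CPM (173 to 186) in mesenchymal cells of the Pdgfra library and at 149 CPM (145 to 154) in those of the Lmx1b library, against 15.9 and 8.78 CPM in cells of other classes. The ratio was 11.3 (10.0 to 12.7) and 17.0 (14.9 to 19.4). On the log2 scale this is 3.42 and 3.94, and it was 2.69 and 2.73 with cells taken at 200 genes and 25% mitochondrial UMIs, 2.96 and 1.98 at 1000 genes and 5%, and 4.22 and 4.58 in thinned cells. With each library clustered alone it was 2.83 in the Pdgfra library. Cartilage came next in the Lmx1b library with 26.1 CPM (21.9 to 30.8) and had 37.7 CPM (31.4 to 44.9) in the Pdgfra library. Mural cells (8.01 and 4.32 CPM), endothelial cells (6.68 and 3.62 CPM) and macrophages (3.49 and 3.06 CPM) were low, and their intervals overlap within each library. At 5000 UMIs a Pdgfra UMI was found in 57.3% and 47.5% of mesenchymal cells, against 2.42% and 1.05% of mural and 4.26% and 1.43% of endothelial cells. Without thinning the shares were 86.8% and 82.9%, 6.15% and 4.21%, and 8.33% and 4.93% of the same classes.

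Schwann cells of the Pdgfra library had 63.9 CPM Pdgfra (50.4 to 80.0), and those of the Lmx1b library 4.80 CPM (0.581 to 17.3). The 76 UMIs of the Pdgfra library lay in 12 of its 100 Schwann cells, 35 of them in 1 cell and 69 in the 5 cells with 5 UMIs or more. Mesenchymal markers summed to 39344 CPM in those 5 cells and to 9125 CPM in Schwann cells with no Pdgfra UMI. Whether these 5 barcodes held more than 1 cell was not tested. Without that 1 cell the level was 35.6 CPM, and at 5000 UMIs 7.35% of Schwann cells of the Pdgfra library had a UMI, against 6.45% in the Lmx1b library.

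Pdgfrb was highest in mural cells. They had 798 CPM (768 to 829) in the Pdgfra library and 571 CPM (551 to 592) in the Lmx1b library, against 120.0 and 114 CPM in cells of other classes, 6.65-fold (6.33 to 6.98) and 5.02-fold (4.80 to 5.24) higher. Mesenchymal cells had 187 CPM (180 to 194) and 200 CPM (194 to 205). Mesenchymal cells, which gave 41.5% and 48.6% of all UMIs, held 43.3% and 61.9% of all Pdgfrb UMIs, and mural cells 38.6% and 34.2%. Endothelial cells, which should lack the gene, had 12.4 CPM (9.35 to 16.2) and 2.72 CPM (1.79 to 3.95). At 5000 UMIs the share of cells with a Pdgfrb UMI was 95.2% and 84.0% in mural, 56.9% and 51.7% in mesenchymal and 3.40% and 1.25% in endothelial cells, and without thinning 96.7% and 93.2%, 81.5% and 78.3%, and 12.5% and 3.40%. T and NK cells of the Lmx1b library stood at 117 CPM, but all 20 UMIs came from 1 cell.

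Past a 2-fold difference on the log2(CPM + 1) scale, Pdgfc and Pdgfra were higher in mesenchymal cells than in cells of other classes and Pdgfb was lower, in both libraries. Over all genes at 5 CPM or more, 7.08% were higher and 14.3% lower in this comparison in the Pdgfra library, and 7.19% and 14.7% in the Lmx1b library. In mural cells Pdgfa and Pdgfrb were higher in both libraries (all genes 8.22% and 9.26%), and Pdgfc and Pdgfra lower, with Pdgfd lower as well in the Pdgfra library (all genes 14.2% and 14.4%). In endothelial cells Pdgfb and Pdgfd were higher (all genes 14.1% and 14.5%) and Pdgfc, Pdgfra and Pdgfrb lower (all genes 15.9% and 16.3%) in both. In Schwann cells Pdgfa and Pdgfb were higher in both libraries (all genes 13.3% and 18.5%). The lower direction was not counted for Schwann cells. In the Pdgfra library they had 5.89 CPM Pdgfc and 3.36 CPM Pdgfd, against 39.8 and 10.7 CPM over all its cells, and in the Lmx1b library 0 UMIs of either. With 6 genes these counts describe the genes and are no set result.

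Within the mesenchymal class 8 subtypes were found, of which 7 had at least 20 cells in both libraries. Pdgfra was highest in the nail mesenchyme-like subtype, whose leading genes include Fst, Msx1 and Sfrp2. Its 128 cells of the Pdgfra library had 421 CPM (394 to 450) and its 52 cells of the Lmx1b library 395 CPM (357 to 435), which was 2.96-fold (2.73 to 3.20) and 2.83-fold (2.55 to 3.13) above other mesenchymal cells. At 5000 UMIs 91.6% and 93.8% of these cells had a Pdgfra UMI. The lowest was the C1qtnf3/Tnn subtype at 69.8 CPM (61.0 to 79.5) and 73.3 CPM (66.2 to 80.9). In the Lmx1b library the subtypes led by Aspn/Postn (161 CPM), Mmp13/Cxcl14 (159 CPM), Mgp/Cygb (158 CPM) and cell cycle genes (154 CPM) had overlapping intervals.

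Pdgfrb had another order. The Mgp/Cygb subtype stood at 500 CPM (445 to 560) and 482 CPM (457 to 509), 2.85-fold (2.52 to 3.22) and 2.86-fold (2.68 to 3.04) above other mesenchymal cells. Mural markers summed to 1821 and 2519.8 CPM there, against 27589 and 38806 CPM in mural cells, and their part in the Pdgfrb level was not tested. Mmp13/Cxcl14 cells followed at 289 CPM (251 to 332) and 379 CPM (357 to 401) and Aspn/Postn cells at 241 CPM (229 to 253) and 226 CPM (215 to 237). Nail mesenchyme-like cells, first for Pdgfra, had 155 CPM (139 to 172) and 182 CPM (157 to 210).

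Osteoblast-like cells carried Pdgfra with little Pdgfrb. In the Ibsp/Ifitm5 subtype, where bone matrix genes lead, Pdgfrb fell to 10.1 CPM (5.23 to 17.7) in 37 cells of the Pdgfra library and 13.2 CPM (10.1 to 17.0) in 140 cells of the Lmx1b library, against 201 and 236 CPM in other mesenchymal cells, which is 19.9 and 17.8 times as much. Pdgfra was at 212 CPM (186 to 239) and 135 CPM (124 to 146) in the same cells. The Bglap subtype, osteocalcin-positive and seen mainly in the Lmx1b library (53 cells), had 202 CPM Pdgfra (176 to 229) and 30.7 CPM Pdgfrb (21.4 to 42.7). In Pdgfra UMIs per Pdgfrb UMI, the Ibsp/Ifitm5 subtype was at 20.9 (11.8 to 41.0) and 10.2 (7.81 to 13.6), the nail mesenchyme-like subtype at 2.72 (2.40 to 3.10) and 2.17 (1.82 to 2.59), and the Mgp/Cygb subtype at 0.411 (0.330 to 0.509) and 0.327 (0.292 to 0.365). This ratio of UMIs orders subtypes and does not compare the abundance of the receptors themselves.

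**Figure D2:**
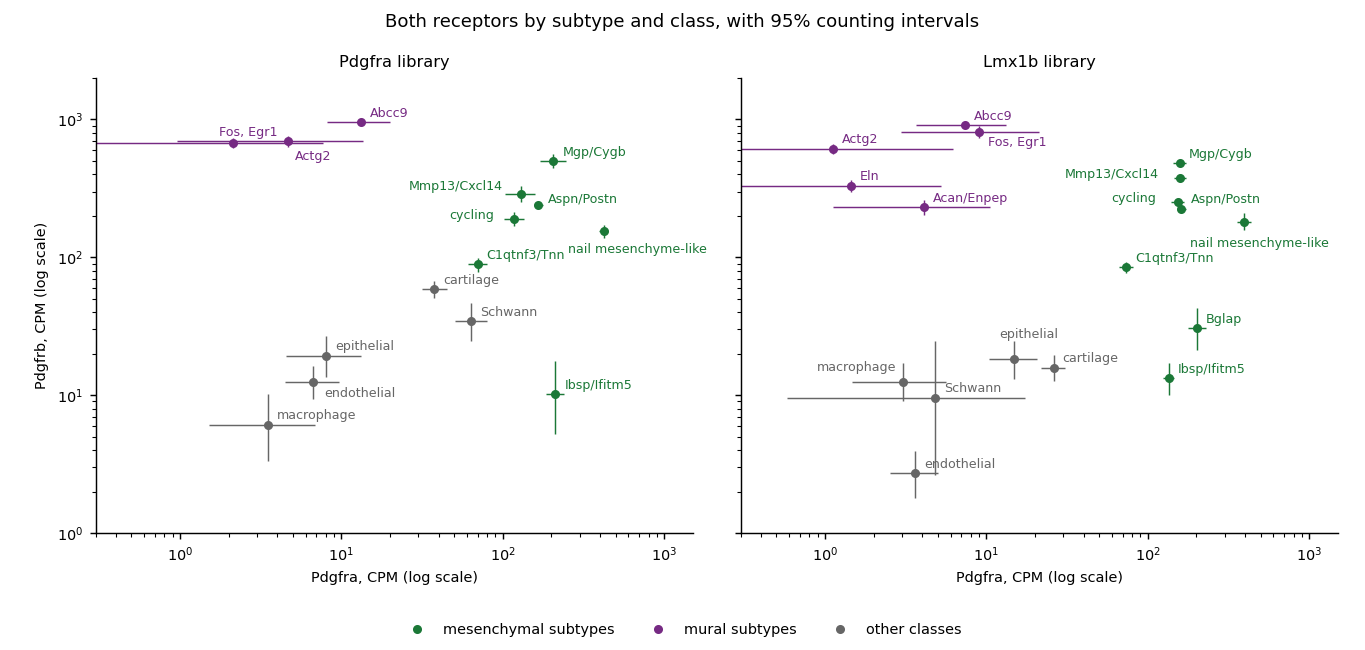
Pdgfrb against Pdgfra (CPM, both axes log) for mesenchymal subtypes, mural subtypes and other classes, the Pdgfra library on the left and the Lmx1b library on the right, with exact 95% Poisson intervals. Mural subtypes lie at the upper left, Ibsp/Ifitm5 cells at the lower right (212 and 135 CPM Pdgfra, 10.1 and 13.2 CPM Pdgfrb) and nail mesenchyme-like cells farthest right.

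The ligands also split the mesenchyme. Pdgfa was highest in the C1qtnf3/Tnn subtype of the Pdgfra library at 204 CPM (189 to 220), where the Lmx1b library had 160 CPM (150 to 172), and in the Ibsp/Ifitm5 subtype at 176 CPM (153 to 202) and 200 CPM (187 to 214). It was lowest in nail mesenchyme-like cells, at 48.2 CPM (39.3 to 58.4) and 50.0 CPM (37.4 to 65.6), with Mmp13/Cxcl14 cells overlapping at 49.6 and 56.0 CPM. The subtype with most Pdgfra thus had the lowest Pdgfa level in both libraries, although not apart from Mmp13/Cxcl14 cells. Cycling cells were at 94.9 CPM (80.7 to 111) in the Pdgfra library and 175 CPM (160 to 192) in the Lmx1b library. Mural markers summed to 2852 and 4116 CPM there, the highest sums among the subtypes, and their part was not tested.

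Pdgfc was highest in Aspn/Postn cells, fibroblasts of the connective tissue, at 102 CPM (94.5 to 110) and 98.9 CPM (91.6 to 107). It was lowest in nail mesenchyme-like cells at 13.1 CPM (8.70 to 18.9) and 13.5 CPM (7.37 to 22.6), 0.17-fold (0.11 to 0.24) and 0.20-fold (0.11 to 0.34) the level of other mesenchymal cells. Pdgfa and Pdgfc, whose products act chiefly through PDGFRα, were thus both lowest where Pdgfra was highest, in both libraries. For Pdgfa, nail mesenchyme-like cells were not apart from Mmp13/Cxcl14 cells. Pdgfd was highest in the Bglap subtype at 62.2 CPM (48.6 to 78.5) in the Lmx1b library, against 13.2 CPM in other mesenchymal cells, a ratio of 4.70 (3.59 to 6.08). Mmp13/Cxcl14 cells had 25.5 CPM (15.1 to 40.3) and 26 CPM (20.6 to 32.2), and C1qtnf3/Tnn cells 7.45 and 5.45 CPM. Pdgfb stayed under 5 CPM in every mesenchymal subtype with at least 20 cells except cycling cells of the Pdgfra library, at 9.55 CPM (5.46 to 15.5) from 16 UMIs, 11 of them those of the single cell described above.

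**Figure D3:**
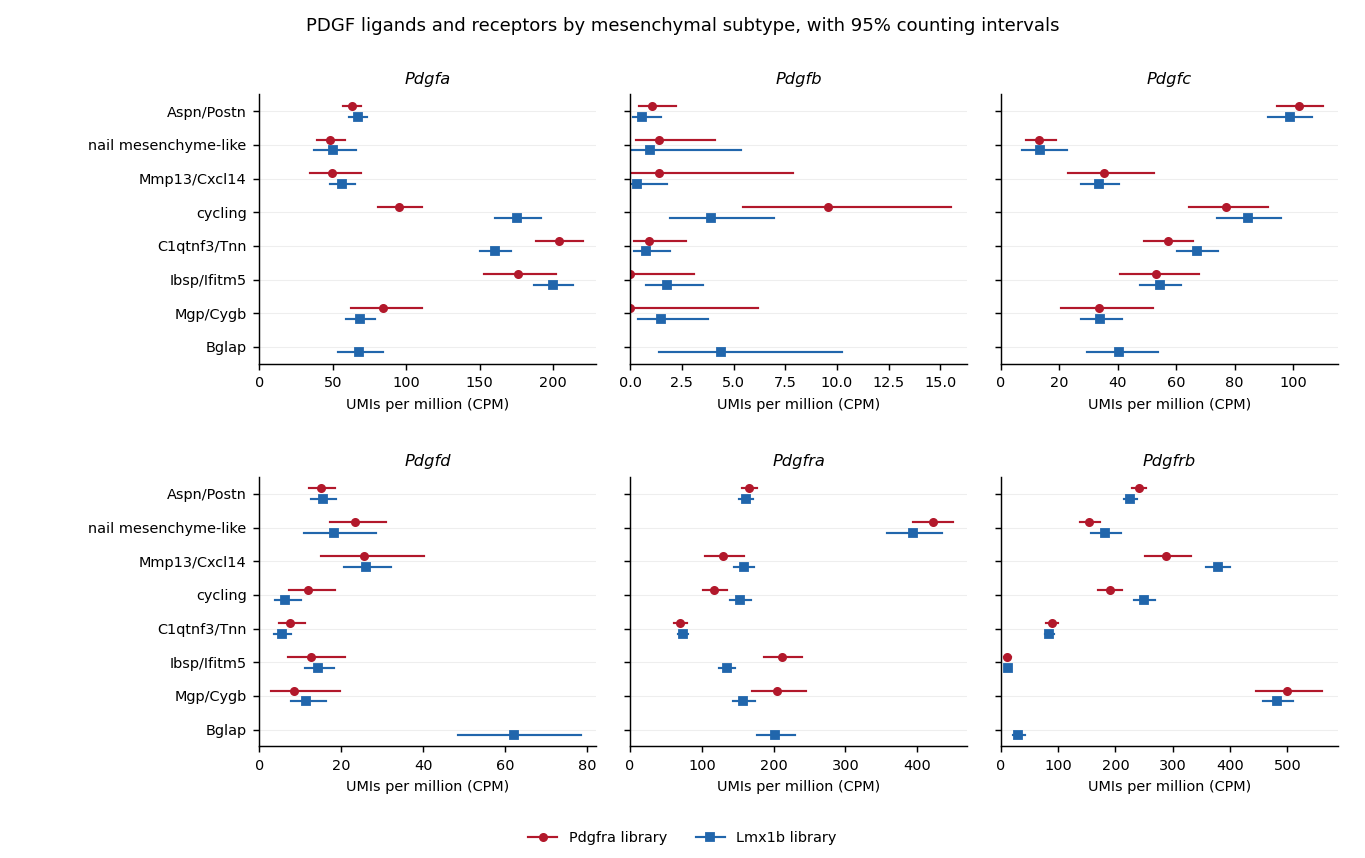
Level of each gene (CPM, linear scale) in each mesenchymal subtype, Pdgfra library beside Lmx1b library, with exact 95% Poisson intervals. Pdgfra is highest and Pdgfc lowest in nail mesenchyme-like cells (421 and 395 CPM, 13.1 and 13.5 CPM), and Pdgfrb is lowest in Ibsp/Ifitm5 cells (10.1 and 13.2 CPM).

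At 5000 UMIs, both receptors were found in the same cell in 34.0% (29.8 to 38.4) of mesenchymal cells of the Pdgfra library and 25.4% (22.6 to 28.4) of those of the Lmx1b library. Neither was found in 19.7% and 26.2%. Among cells with a Pdgfra UMI 59.3% and 53.6% had a Pdgfrb UMI, against 53.8% and 50.1% of cells without one, so detection of one receptor said little about the other over the class. Both were found in 46.7% and 58.3% of nail mesenchyme-like cells, in 5.88% and 2.33% of Ibsp/Ifitm5 cells and in 2.42% and 1.05% of mural cells.

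Ligand and receptor genes were also met in the same cell. In mural cells Pdgfa and Pdgfrb were found together in 76.8% (70.5 to 82.4) and 67.9% (62.2 to 73.3) at 5000 UMIs, although PDGF-A is a ligand of the other receptor. In mesenchymal cells Pdgfa was found in 25.3% (20.3 to 30.7) of cells with a Pdgfra UMI and 34.0% (27.6 to 40.8) of cells without in the Pdgfra library, and in 31.7% (27.4 to 36.3) and 35.6% (31.3 to 40.0) in the Lmx1b library. Pdgfc was found in 24.2% and 27.4% in the Pdgfra library and in 21.8% and 24.5% in the Lmx1b library. Every one of these pairs of intervals overlaps.

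Within the vessel wall, Pdgfrb was highest in the pericyte-like Abcc9 subtype at 958 CPM (911 to 1007) in the Pdgfra library and 910 CPM (863 to 960) in the Lmx1b library. The Actg2 smooth muscle-like subtype had 693 CPM (630 to 760) and 612 CPM (562 to 666), with Pdgfa the other way round, at 530 CPM (476 to 589) and 463 CPM (420 to 510), against 342 CPM (314 to 372) and 338 CPM (309 to 368) in the Abcc9 subtype. A pair of mural subtypes was nearly absent from the Pdgfra library (4 and 6 cells) and had 63 cells each in the Lmx1b library. Of these, Eln cells had 766 CPM Pdgfa (720 to 814), 330 CPM Pdgfrb (300 to 362) and 87.9 CPM Pdgfb (73.0 to 105), and Acan/Enpep cells had 234 CPM Pdgfa (205 to 267), 230.4 CPM Pdgfrb (201 to 263) and 37.9 CPM Pdgfd (26.7 to 52.2). Pdgfd was 9.14-fold (5.07 to 17.1) higher in Acan/Enpep cells than in other mural cells, where it was at 4.15 CPM.

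Among endothelial cells, Pdgfb was highest in capillary-like (268 CPM, 208 to 339, and 397 CPM, 353 to 445), tip-like (310 CPM, 248 to 382, and 382 CPM, 342 to 426), S100a4/Tinagl1 (350 CPM, 299 to 406, and 339 CPM, 309 to 371) and arterial-like cells (362 CPM, 307 to 425, and 285 CPM, 248 to 326). Tip cells lead new sprouts. The order of these 4 subtypes differed between libraries. The venous-like Fbln2/Nr2f2 subtype had 142 CPM (117 to 172) and 148 CPM (131 to 166), below all 4 in both. Pdgfd was highest in arterial-like cells at 84.0 CPM (58.5 to 117) and 74.3 CPM (56.0 to 96.7), 4.91-fold (3.17 to 7.5) and 2.68-fold (1.96 to 3.60) above other endothelial cells. Pdgfa was lowest in capillary-like cells at 11.6 CPM (2.40 to 34.0) and 16.4 CPM (8.46 to 28.6), against 98.0 and 85.1 CPM in other endothelial cells.

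**Figure D4:**
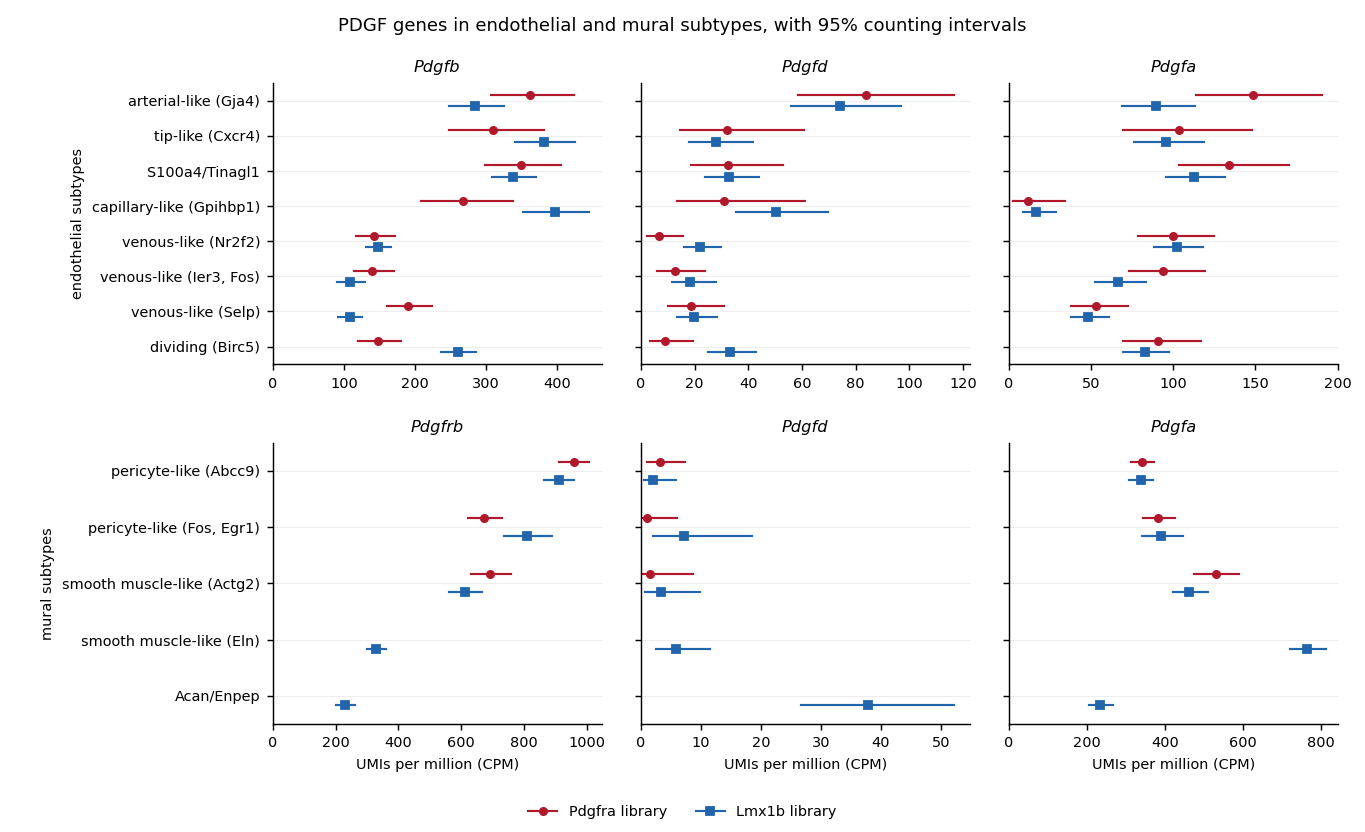
Levels (CPM, linear scale) of Pdgfb, Pdgfd and Pdgfa in endothelial subtypes (top) and of Pdgfrb, Pdgfd and Pdgfa in mural subtypes (bottom). Pdgfra library points are beside Lmx1b library points, with exact 95% Poisson intervals. Pdgfrb is highest in Abcc9 pericyte-like cells (958 and 910 CPM) and Pdgfd in arterial-like cells among endothelial subtypes (84.0 and 74.3 CPM).

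Between libraries the mesenchymal levels of the genes were close. Pdgfra was at 179 CPM in the Pdgfra library and 149 CPM in the Lmx1b library, a ratio of 1.2 (1.15 to 1.26). Nail mesenchyme-like cells made up 128 of 552 mesenchymal cells in the Pdgfra library and 52 of 988 in the Lmx1b library, and within that subtype the ratio was 1.07 (0.95 to 1.2). In Aspn/Postn cells it was 1.03 (0.95 to 1.12). With every subtype weighted equally the log2 difference was 0.10, against 0.27 over the whole class. Pdgfrb had a ratio of 0.94 (0.90 to 0.98), Pdgfa 0.88 (0.83 to 0.93), Pdgfc 1.07 (1.00 to 1.16) and Pdgfd 0.95 (0.81 to 1.12), and no gene of the 6 passed 2-fold in either direction (all genes 0.99% higher and 1.07% lower).

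Some values outside the mesenchyme did differ past 2-fold. Endothelial Pdgfrb was at 12.4 CPM in the Pdgfra library and 2.72 CPM in the Lmx1b library, 4.58-fold (2.83 to 7.56), where 0.889% of all genes were higher. Mesenchymal markers summed to 2676 and 1437 CPM and mural markers to 538 and 643 CPM in these endothelial cells, with all 10 markers of each list detected, and their part was not tested. Cartilage Pdgfrb was at 58.5 CPM (50.6 to 67.3) and 15.8 CPM (12.6 to 19.5), 3.71-fold (2.86 to 4.85), where 3.48% of all genes were higher. Mural Pdgfd was at 2.37 and 10.3 CPM (2.98% of all genes lower), and 37 of its 55 UMIs in the Lmx1b library were in the Acan/Enpep subtype, which had 4 cells in the Pdgfra library. Schwann Pdgfra and Pdgfrb were 13.3-fold (3.56 to 112) and 3.59-fold (1.30 to 13.8) higher in the Pdgfra library (all genes 10.2%), from 2 and 4 UMIs in the Lmx1b library and with the concentration in a few cells described above. Schwann Pdgfc had 7 UMIs and 0 UMIs. Osteoclast Pdgfrb was at 8.77 and 1.64 CPM (4.23% of all genes higher), the Lmx1b value resting on 2 UMIs, and osteoclast Pdgfra had 10 UMIs and 0 UMIs. In the Pdgfra library 1 osteoclast, with 38805 CPM of mesenchymal markers, held 6 of the 16 Pdgfrb and 5 of the 10 Pdgfra UMIs, and without it these genes were at 5.62 and 2.81 CPM. Epithelial Pdgfa differed 2.13-fold (1.71 to 2.68; 9.45% of all genes higher), between different clusters and with the mesenchymal markers given above. Genotype and library cannot be told apart in any of these.

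In the Pdgfra library tdTomato marks cells that had active Cre from the Pdgfra line at the time of tamoxifen, and their descendants. Its level, from UMIs summed over cells, was 2789 CPM in mesenchymal, 2238 CPM in endothelial, 2091 CPM in mural, 1622 CPM in Schwann and 996 CPM in cartilage cells. It was 523 CPM in epithelial cells, 394 CPM in macrophages and 296 CPM in osteoclasts. In the Lmx1b library the same classes had between 40.3 and 319 CPM. Cells were called labelled at 1600 CPM tdTomato or more. This held for 86.6% (83.5 to 89.3) of mesenchymal, 43.4% (37.1 to 49.9) of mural, 31.0% (22.1 to 41.0) of Schwann, 30.3% (24.8 to 36.2) of endothelial and 14.1% (7.26 to 23.8) of cartilage cells. It held for 5.83% (2.38 to 11.6) of macrophages and 6.85% (2.26 to 15.3) of osteoclasts. The share was 9.68% (5.84 to 14.9) in epithelial cells and 15.2% (5.11 to 31.9) in 33 T and NK cells. In only 19 lymphatic endothelial cells it was 52.6% (28.9 to 75.6).

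Pdgfra RNA at 14 days and tdTomato were thus not ordered alike. Endothelial and mural cells had 2238 and 2091 CPM tdTomato with 6.68 and 8.01 CPM Pdgfra, whereas cartilage had 996 CPM tdTomato with 37.7 CPM Pdgfra. Over 9 classes Pearson's r of log levels was 0.60 in the Pdgfra library (11 classes of the Lmx1b library, 0.36), and over 7 mesenchymal subtypes 0.38 (8 subtypes of the Lmx1b library, 0.80). These are descriptions over units of 1 library, which share its free RNA and depth. The endothelial tdTomato lay in part of the cells, the median endothelial cell having 437 CPM and the quartiles 194 and 4216 CPM.

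Among endothelial cells Pdgfra was low with and without the label. It was at 5.82 CPM (2.66 to 11) in 80 labelled cells, against 7.16 CPM (4.37 to 11.1) in 184 unlabelled cells, a ratio of 0.81 (0.33 to 1.87), so a difference was not detectable at this depth. Mesenchymal markers summed to 2061 and 3016 CPM in these groups. Endothelial Pdgfrb was at 20.0 CPM (13.6 to 28.4) in labelled and 8.24 CPM (5.22 to 12.4) in unlabelled cells, a ratio of 2.43 (1.37 to 4.37), and 1 labelled cell held 14 of its 31 labelled UMIs, without which the labelled level was 11.5 CPM. In mural cells Pdgfra was at 9.41 CPM (5.26 to 15.5) in 106 labelled cells and 6.75 CPM (3.49 to 11.8) in 138 unlabelled cells, a ratio of 1.39 (0.61 to 3.26), and Pdgfrb at 806 and 791 CPM, a ratio of 1.02 (0.94 to 1.10). Of the 27 mural Pdgfra UMIs of this library, 10 were in 1 cell. Mesenchymal markers summed to 41456 CPM in mural cells with a Pdgfra UMI and to 16626 CPM in those without, and their part was not tested. In Schwann cells Pdgfra was at 122 CPM (92.1 to 158) in 31 labelled cells and 26.4 CPM (15.9 to 41.2) in 69 unlabelled cells, and without the 1 labelled cell with 35 UMIs the labelled level was 50.9 CPM. Schwann Pdgfrb was at 64.0 CPM (43.2 to 91.4) in labelled and 15.3 CPM (7.62 to 27.3) in unlabelled cells, a ratio of 4.19 (2.04 to 9.28), and without the 1 labelled cell with 11 UMIs the labelled level was 44.6 CPM. Mesenchymal markers summed to 21973 CPM in labelled and 10188 CPM in unlabelled Schwann cells, whereas the median cell had 8491 and 10114 CPM.

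**Figure D5:**
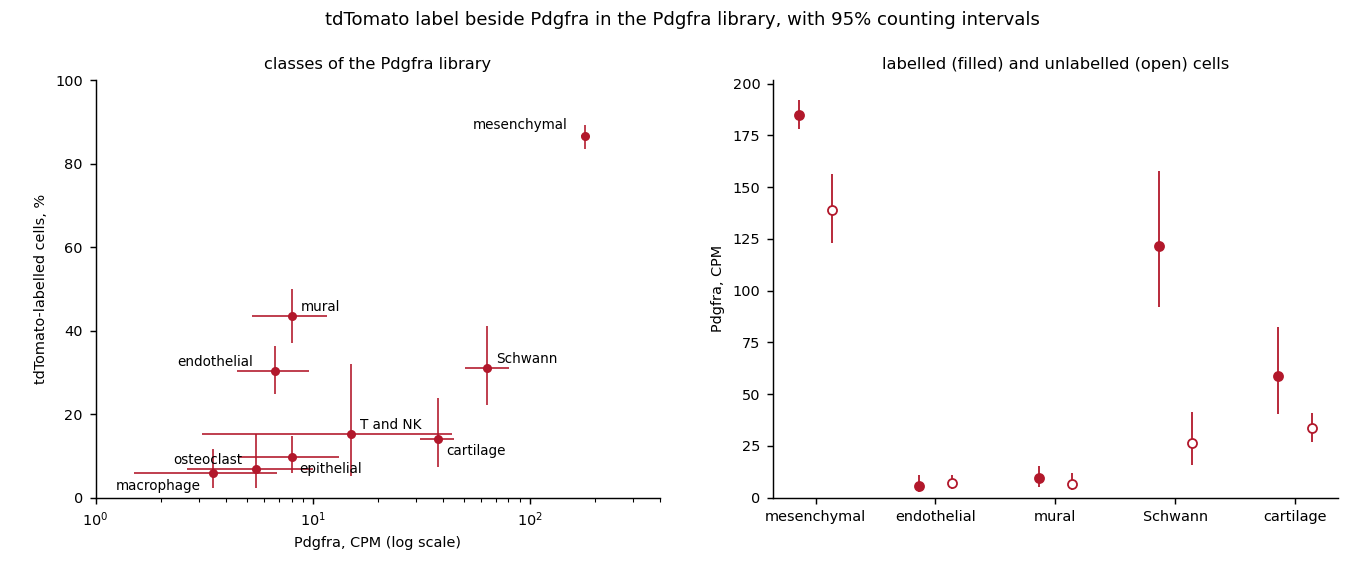
The left panel shows the share of tdTomato-labelled cells (%) against Pdgfra (CPM, log scale) for classes of the Pdgfra library. The right panel shows Pdgfra (CPM) in labelled and unlabelled mesenchymal, endothelial, mural, Schwann and cartilage cells of that library. Bars are exact 95% intervals, binomial for shares and Poisson for CPM. Endothelial and mural cells are 30.3% and 43.4% labelled at 6.68 and 8.01 CPM Pdgfra, and mesenchymal cells 86.6% at 179 CPM.

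Within the mesenchyme of the Pdgfra library, Pdgfra was at 185 CPM (178 to 192) in 478 labelled cells and 139 CPM (123 to 157) in 74 unlabelled cells, a ratio of 1.33 (1.17 to 1.51). Pdgfrb was at 195 and 127 CPM, a ratio of 1.54 (1.35 to 1.76), and Pdgfa at 94.4 and 157 CPM, a ratio of 0.60 (0.53 to 0.68). Pdgfc was at 69.7 and 67.0 CPM and Pdgfd at 15 and 11.2 CPM. Of the 6 genes only Pdgfb passed 2-fold, at 1.27 CPM (18 UMIs) against 6.6 CPM (13 UMIs), where 3.93% of all genes were lower. This difference vanished or changed sign under 5 other settings. Without the single cell described above the unlabelled level was 1.05 CPM. The labelled share followed the subtype, from 97.7% of nail mesenchyme-like and 96.1% of Aspn/Postn cells to 65.9% of cycling and 27.0% (13.8 to 44.1) of Ibsp/Ifitm5 cells. With subtypes weighted equally the log2 difference of Pdgfra was -0.039, against 0.41 over the class, and without the nail mesenchyme-like subtype it was 0.038. It turned to -0.21 with cells taken at 200 genes and 25% mitochondrial UMIs. For Pdgfrb the same log2 difference was 0.62 over the class, 0.017 with subtypes weighted equally, 2.36 with cells taken at 1000 genes and 5% mitochondrial UMIs and -0.52 with cells called labelled at 800 CPM tdTomato. For Pdgfa it was -0.73 over the class, 0.084 with equal weights and -0.097 at 1000 genes and 5%. In Ibsp/Ifitm5 cells Pdgfra was lower in labelled than in unlabelled cells (139 and 245 CPM, 0.56, 0.41 to 0.77) and in cycling cells higher (141 and 56.5 CPM, 2.50, 1.66 to 3.90). These folds rest on few cells, as 10 of 37 Ibsp/Ifitm5 and 27 of 41 cycling cells were labelled. The unlabelled cycling cells include the single cell described above, with 67992 UMIs and 15090 CPM of mural markers, and its part was not tested.

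The labelled share was alike at 0 to 2 Pdgfra UMIs and highest at 3 or more, where the interval overlaps those at 1 and 2 UMIs. Subtypes were not separated in this comparison. After thinning, 88.2% (83.1 to 92.2) of the 212 mesenchymal cells with no Pdgfra UMI were labelled, and so were 88.7% (82.3 to 93.4) of 142 cells with 1, 89.7% (79.9 to 95.8) of 68 with 2 and 98.7% (92.8 to 99.97) of 75 with 3 or more. The median tdTomato level of these cells was 2746, 2922, 2835 and 3697 CPM in the same order. CreERT2 RNA itself had 34 UMIs in the Pdgfra library, 28 of them in mesenchymal cells, and 3 UMIs in all Lmx1b cells. Of 988 mesenchymal cells of the Lmx1b line, 66 were labelled, 33 of them nail mesenchyme-like, and their Pdgfra level was 243 CPM, against 144 CPM in unlabelled ones, a ratio of 1.69 (1.52 to 1.88). Within the nail mesenchyme-like cells of that library it was at 391 and 400 CPM, a ratio of 0.98 (0.80 to 1.2), and within Aspn/Postn cells 158 and 162 CPM, a ratio of 0.97 (0.79 to 1.19).

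Of 8 PDGF binding proteins and co-receptors, 7 and 8 were measured, and in mesenchymal cells 3 and 4 were higher past 2-fold (all genes 7.08% and 7.19%) and 1 lower (all genes 14.3% and 14.7%), the list median being 0.73 and 1.25 on the log2 scale, against -0.19 and -0.18 over all genes. Thrombospondin 1 (Thbs1) was at 748 CPM in mesenchymal cells against 171 CPM in other cells of the Pdgfra library and 641 against 190 CPM in the Lmx1b library, and the PDGFRβ-associated receptor Lrp1 at 457 against 175 CPM and 552 against 141 CPM. The list was the other way in endothelial cells, with 1 higher (all genes 14.1% and 14.5%) and 6 or 7 lower (all genes 15.9% and 16.3%) and a median of -3.83 and -3.56 (all genes 0.20 and 0.23). The one higher was neuropilin 1 (Nrp1), at 573 against 158 CPM and 617 against 143 CPM.

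Of 7 proteases that process PDGF ligands, 6 were measured in mesenchymal cells of each library. Of all genes, 7.08% and 7.19% were higher past 2-fold in mesenchymal cells and 14.3% and 14.7% lower. In endothelial cells 14.1% and 14.5% of all genes were higher. Plat, the tissue plasminogen activator that cuts PDGF-C, was at 128 against 51.2 CPM in the Pdgfra library and did not pass 2-fold in the Lmx1b library. The proprotein convertase Pcsk5 was at 27.8 against 10.1 CPM and 31.2 against 10.6 CPM. Plau, the urokinase that cuts PDGF-D, was lower in mesenchymal cells (2.11 against 6.43 CPM, 2.65 against 9.80 CPM) and higher in endothelial cells (9.45 against 3.63 CPM, 13.0 against 4.74 CPM).

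Of 13 attenuators of receptor signalling, 5 were higher in mural cells in both libraries (all genes 8.22% and 9.26%) and 0 and 1 lower (all genes 14.2% and 14.4%), with a list median of 0.13 and 0.14 (all genes 0.01 and 0.04). They included the feedback inhibitor Errfi1, known from the EGF receptor (184 against 56.9 CPM, 173 against 49.3 CPM), Spry1 (136 against 27.7 CPM, 138 against 33.1 CPM), Spry4 and Spry2. In mesenchymal cells 0 of 13 were higher (all genes 7.08% and 7.19%), and 4 and 2 were lower (all genes 14.3% and 14.7%), with a median of -0.65 and -0.57. Among those lower was Dusp6, a phosphatase of ERK, at 5.51 against 52.5 CPM and 5.98 against 46.7 CPM, and it was higher in endothelial cells (109 against 19.0 CPM, 107 against 9.32 CPM).

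Of 19 adaptors and effectors 18 were measured. In mesenchymal cells 0 and 1 were higher and 0 and 1 lower, with a median of -0.28 and -0.30 (all genes as above). In mural cells 2 were higher in both libraries, Pik3r1 and Gab1 (all genes 8.22% and 9.26%). There 0 and 1 were lower (all genes 14.2% and 14.4%). In endothelial cells 6 were higher (all genes 14.1% and 14.5%) and 2 lower (all genes 15.9% and 16.3%) in both. The higher ones with most UMIs were Fyn (159 against 54.6 CPM, 162 against 53.0 CPM), Rasa1 and Nck1. Of the related class III receptor kinases and their ligands, Kitl was at 153 against 45.4 CPM and 137 against 50.2 CPM in mural cells, and at 13.1 against 92.6 CPM and 13.2 against 103 CPM in mesenchymal cells. That list counted 4 and 3 higher of 6 in mural cells (all genes 8.22% and 9.26%) and 1 higher with 4 and 3 lower in mesenchymal cells (all genes 7.08% and 7.19% higher, 14.3% and 14.7% lower). Of 7 immediate early genes, 1 (Junb) was lower in mesenchymal cells in both libraries (all genes 14.3% and 14.7%). These genes respond to growth factors and to tissue digestion alike.

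Over 18 classes and subtypes with at least 30 cells in both libraries, the libraries were compared gene by gene. Pearson's r of log2(CPM + 1) lay between 0.82 (Pdgfd) and 0.98 (Pdgfb). The median absolute log2 difference between libraries ran from 0.17 (Pdgfa) to 0.70 (Pdgfra). These units share cells and depth within a library, so the values are descriptions. Among 14086 genes, the patterns most like Pdgfra were those of Dcn (0.93 and 0.94), Lum (0.92 and 0.95), Smoc2, Clec11a and Lnx1. Lnx1 lies 449 kb from Pdgfra on chromosome 5. Nearest to Pdgfrb were Slc6a17 (0.95 and 0.95), Mir143hg, Cacna1c, Pde3a and C2. Nearest to Pdgfa were Itga7 (0.81 and 0.85), Pelo, Dtna, Cystm1 and Hspb2, to Pdgfb Tmsb4x (0.89 and 0.92), Tmcc3, Rac1, Dusp6 and Pak2, to Pdgfc Fn1 (0.87 and 0.92), Prg4, Itga11, Fmod and Gpx3, and to Pdgfd Dchs1 (0.91 and 0.85), Mpzl1, Hoxd10, Itm2c and Mecom. Dcn and Lum are among the markers that defined the mesenchymal class. Among the 6 genes themselves, Pdgfb ran against Pdgfra (-0.74 and -0.88) and against Pdgfc (-0.80 and -0.84), and Pdgfc ran with Pdgfra (0.72 and 0.75).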

How the data were processed

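Digit tip cells of 2 mouse lines were measured, 1 library each. Per the file headers, the authors used Cell Ranger 4.0.0, and what they deposited are UMI counts, not normalized, for each gene in each barcode. The labels' protocols name mm10 together with tdTomato as the genome. Which barcodes the authors kept before deposit is not given in the sources used here. The Pdgfra library had 5032 barcodes and 49084751 UMIs and the Lmx1b library 5991 barcodes and 66867027 UMIs.

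A barcode was taken as a cell if it had 500 genes or more and no more than 10% of UMIs from mitochondrial genes, and the highest-scoring 0.8% per 1000 barcodes by Scrublet were taken out as doublets (203 and 287), since its automatic threshold marked 0. Both libraries were clustered together with scanpy 1.11.5 in Python 3.11.15 (2000 variable genes without the 6 PDGF genes, tdTomato, CreERT2 and SSM2GFP; 30 components, 15 neighbours, Leiden resolution 1.0). The 27 clusters were named from lists of markers, each with a score of at least 0.4 and at least 3 detected markers, and shallow clusters, with a median UMI count below 0.333 times that of the deepest cluster in their class, were set aside. Mesenchymal, mural and endothelial cells were reclustered at resolutions of 0.6, 0.4 and 0.5.

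UMIs were summed over cells and scaled to CPM. A gene was read in a comparison at 5 CPM or more and called at a 2-fold difference with a pseudocount of 1 CPM. No test was made, since each line had 1 library and cells are not replicates. Intervals were computed with scipy 1.17.1. All 6 genes are named throughout. Of each pathway list the members with most UMIs on each side are named, except 1 gene that is not reported here, and as most alike the 5 genes with the highest lower correlation of both libraries. The genes, the lists, the labelled threshold of 1600 CPM tdTomato and the markers were chosen with earlier results of these data known. On simulated counts the sums and folds were checked against known values. Of the features, 27645 of 28001 matched GENCODE vM21. Promoter stretches were matched by symbol for 4 of the 6 genes.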

Additional observations from a re-analysis of the deposited data

Results flagged for a closer look

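A fold of a PDGF gene went opposite ways in the libraries, with both counting intervals off 1, in 4 comparisons within a class. The difference between libraries was not tested in any of them.

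In dividing endothelial cells, Pdgfb was 0.652 times the level of other endothelial cells in the Pdgfra library and 1.15 times in the Lmx1b library. In Aspn/Postn mesenchymal cells, Pdgfra was 0.881 times the level of other mesenchymal cells in the Pdgfra library, where nail mesenchyme-like cells were 128 of 552, and 1.11 times in the Lmx1b library, where they were 52 of 988. In Ibsp/Ifitm5 cells the Pdgfra fold was 1.2 in the Pdgfra library and 0.89 in the Lmx1b library. In Fos/Egr1 pericyte-like cells, led by genes that also respond to tissue digestion, Pdgfrb was 0.796 times the level of other mural cells in the Pdgfra library and 1.49 times in the Lmx1b library, whose other mural cells include 63 Eln and 63 Acan/Enpep cells.

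SSM2GFP, a further feature of the count tables that no label explains, had 5 UMIs in the Pdgfra library and 4 UMIs in the Lmx1b library, above the 3 counts that a count of 0 allows.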

How the results depend on the processing

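The 8 comparisons fixed for Pdgfra, Pdgfrb and Pdgfb were recomputed under 12 to 16 other settings each, and 57 of 102 values moved by less than the counting interval. On the log2 scale, Pdgfra in mesenchymal over other cells of the Pdgfra library (3.42) became 2.69 with 200 genes and 25% mitochondrial UMIs as limits, 2.96 with 1000 genes and 5%, 3.15 and 3.19 at resolutions 0.5 and 2.0, 2.83 with each library clustered alone, 3.82 as mean over cells, 3.61 with median-of-ratios scaling and 4.22 thinned. In the Lmx1b library (3.94) it became 2.73 and 1.98 with the gene and mitochondrial limits, 4.26 with cells gated one by one, 4.13 with median-of-ratios scaling and 4.58 thinned. Pdgfrb in mural over other cells of the Pdgfra library (2.72) became 2.83 and 3.20 with those limits, 2.57 with doublets kept, 3.22 as mean over cells and 2.96 thinned, and in the Lmx1b library (2.32) 2.48 and 2.40 at resolutions 0.5 and 2.0, 2.63 as mean over cells and 2.50 thinned. Pdgfb in endothelial over other cells of the Pdgfra library (3.48) became 3.72 with 1000 genes and 5%, 3.30 with doublets kept, 3.25 with median-of-ratios scaling and 3.24 thinned, and in the Lmx1b library (3.91) 3.74 and 4.74 with the limits, 3.77 with doublets kept, 3.69 with median-of-ratios scaling and 3.67 thinned. Pdgfra between libraries in mesenchyme (0.27) became 0.094 with 200 genes and 25%, 0.16 gated, 0.44 as mean over cells, 0.47 thinned, 0.17 with set-aside cells kept, 0.10 with equal weights for subtypes and 0.031 without nail mesenchyme-like cells. Pdgfra in labelled over unlabelled mesenchymal cells of the Pdgfra library (0.41) turned to -0.21 with 200 genes and 25% and to -0.039 with equal weights, and became 0.62 with 1000 genes and 5%, 0.70 thinned, 0.85 and 0.81 with the label at 800 and 3200 CPM and 0.038 without nail mesenchyme-like cells. The cause was not tested. Keeping set-aside cells, weighting subtypes equally and leaving out nail mesenchyme-like cells were chosen after seeing the data. Pdgfb in labelled over unlabelled mesenchymal cells of the Pdgfra library, on 18 and 13 UMIs, vanished with 1000 genes and 5% (0.00). It changed sign with doublets kept (0.063), resolution 2.0 (0.15), PDGF genes allowed in clustering (0.095) and the label at 800 CPM (1.58). Of 510 values of the other 40 results 356 stayed within the interval and 149 moved, differences under 2-fold that turned among them. These 5 lost or changed the sign of a difference past 2-fold.

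With genes read at 1 CPM instead of 5 CPM, 167 instead of 109 genes were lower in mesenchyme of the Pdgfra library than in that of the Lmx1b library, and 1284 instead of 846 higher in labelled mesenchymal cells. No paired analysis was possible because each line had 1 library. Depth limits Pdgfd, Pdgfb in mesenchyme and Pdgfra outside it, where values rest on few UMIs, and the number of mice behind each library is not known.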
